A study of Mus musculus with 8 samples.

Results

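The connexins that build the gap junctions of the mouse cochlea were followed in RNA seq libraries of WT and *Opa1*+/- mice. The 8 genes were chosen by symbol, with no measured value in the rule, though earlier results of these data were known. From the 47628 named entries of the count tables they were *Gjb2*, *Gjb6*, *Gja1*, *Gjc1*, *Gjc3*, *Gja4*, *Gja5* and *Gjd2*. All 8 passed the filter on low counts, which kept 19366 genes. None of the 8 passed the test of a difference between genotypes, while *Opa1* itself fell. The RNA of *Gjb2* and *Gjb6* made up most of the connexin RNA in every mouse.

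Cochlear RNA came from 4 WT mice, animals 4, 5, 6 and 8, and from 4 heterozygous *Opa1*+/- mice, numbered 2, 7 and 2 further 3-digit numbers that are replaced here by A (the lower) and B, aged 21 days and untreated. The *Opa1*+/- mice carry a germline knock-in of the delTTAG deletion on 1 *Opa1* allele, in every cell of the body, on a mixed C57BL/6J and 129Sv/Pas background, and the WT mice were littermates. The *Opa1* gene encodes a dynamin-like GTPase of the inner mitochondrial membrane that governs mitochondrial fusion and cristae shape. Whole cochleae were extracted, so each library holds sensory, supporting, neural, vascular, bone and blood cells, and fewer cells of a type cannot be told apart from less RNA per cell. Neither the sex of each mouse nor which RNA kit it was extracted with is given by the labels.

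Gap junctions are clusters of intercellular channels. Connexin subunits assemble into a half-channel in the membrane of each cell, and half-channels of neighbouring cells dock to let ions, second messengers and small metabolites pass. In the cochlea they couple supporting cells of the sensory epithelium into 1 network, and the fibrocytes of the lateral wall and the intermediate and basal cells of the stria vascularis into another. These networks are known for spreading potassium and metabolites between cells, and mutations of the human *GJB2* gene are a frequent cause of inherited deafness. Hair cells do not take part in these networks.

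Between 15978051 and 20828030 counts per mouse fell on named genes. The targeted gene was checked first. *Opa1* stood at 119.7 ± 6.09 CPM, counts scaled to a common library size (SD, n = 4), in WT and at 65.6 ± 4.42 (SD, n = 4) in *Opa1*+/- mice, and every *Opa1*+/- mouse was below every WT mouse (log2 fold change −0.87, SE 0.0677, adjusted p = 0.00515 by edgeR's quasi-likelihood test). Of 17 lists of cell type markers, none held a gene at 0 in all 8 mice, lists of keratinocytes and skeletal muscle included. *Coch*, a matrix protein of the fibrocytes, and *Otos*, the fibrocyte gene of otospiralin, were the most abundant of the fibrocyte list. They stood at 3135 ± 446 and 454 ± 123 CPM in WT mice (SD, n = 4 each). Some other cochlear markers were low, such as *Crym* of the same list at 3.11 CPM and *Slc26a5* of hair cells at 2.28 CPM in WT mice. WT mouse 4 stood apart, with the lowest summed CPM of the 8 mice for supporting cells, fibrocytes, stria vascularis and hair cells and the highest for neutrophils.

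*Gjb2* and *Gjb6* are neighbours on mouse chromosome 14. In the GENCODE vM21 annotation of GRCm38, *Gjb2* (ENSMUSG00000046352.7) spans chr14:57098600-57104702 and *Gjb6* (ENSMUSG00000040055.9) chr14:57123303-57133611, both on the minus strand, with 18600 bases between them. *Gjb2* encodes Cx26 and *Gjb6* encodes Cx30, which are known to combine in the same channels of cochlear supporting cells and fibrocytes. The 250 bases upstream of the RefSeq start of each gene, taken from the GRCm38.p6 assembly and read 5′ to 3′ on the minus strand, are shown to set side by side the starts of these neighbouring genes, whose RNA is the most abundant of the 8. The window of *Gjb2* is chr14:57104703-57104952 and that of *Gjb6* is chr14:57133612-57133861. Capitals mark GC boxes, the motif GGGCGG on either strand.
Gjb2: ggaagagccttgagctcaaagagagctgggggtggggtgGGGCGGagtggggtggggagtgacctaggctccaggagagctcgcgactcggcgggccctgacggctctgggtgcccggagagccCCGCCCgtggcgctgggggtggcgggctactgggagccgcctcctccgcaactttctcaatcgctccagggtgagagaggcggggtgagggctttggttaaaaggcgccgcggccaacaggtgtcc
Gjb6: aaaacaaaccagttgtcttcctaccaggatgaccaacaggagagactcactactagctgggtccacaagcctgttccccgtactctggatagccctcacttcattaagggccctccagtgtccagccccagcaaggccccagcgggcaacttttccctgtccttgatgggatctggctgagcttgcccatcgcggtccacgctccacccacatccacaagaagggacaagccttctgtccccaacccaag

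The *Gjb2* window held 2 GC boxes, whose first bases lie 211 and 126 bases before the start, whereas the *Gjb6* window held none. At least 1 GC box was present in 32.7% of 32851 promoter windows of this length, and 2 or more in 16.7%. Neither window held TATAAA (12.4% of all promoters) or CCAAT (33.8%), both searched on either strand. *Gjb2* had 69.2% G and C and 18 CpG dinucleotides, and *Gjb6* had 56.8% and 5, against a median of 52.4% and 6 over all promoters. The RefSeq table held promoters of 7 of the 8 genes. Among the others, the windows of *Gja4*, *Gja5* and *Gjd2* held 1 GC box each, that of *Gjc3* held 1 CCAAT and no GC box, and that of *Gja1* held none of the 3 motifs. No 2 matches overlapped in these windows, and a match describes the letters only.

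The first question was how much of each connexin the cochlea holds. Levels between genes were compared as CPM per kilobase of merged exon length, averaged over all 8 mice. *Gjb2* stood at 177.7 ± 28.4 and *Gjb6* at 112.5 ± 15.6 CPM per kilobase (SD, n = 8). Their ranges over mice overlapped, but *Gjb2* was above *Gjb6* within each mouse, and the ratio of their counts lay between 1.29 and 1.65 in WT and between 1.26 and 1.53 in *Opa1*+/- mice. The next connexin, *Gjc3*, was 10.6-fold below *Gjb6* on the same scale.

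*Gjc3* stood at 10.6 ± 1.13 CPM per kilobase, followed by *Gja1* at 5.91 ± 0.424, *Gja4* at 2.55 ± 0.335, *Gjd2* at 1.71 ± 0.300, *Gjc1* at 1.56 ± 0.196 and *Gja5* at 0.587 ± 0.147 (SD, n = 8). The ranges of *Gja4* and *Gjd2* overlapped, and so did those of *Gjd2* and *Gjc1*. *Gjc3* and *Gja1*, and *Gjc1* and *Gja5*, did not overlap. Part of this order depends on the length used: *Gja1* has 10257 bases of merged exons and a longest transcript of 3889, and per kilobase of longest transcript it stood at 15.6 and above *Gjc3* at 11.6, and *Gjc1* stood at 2.28 and above *Gjd2*. By either length *Gjb2* and *Gjb6* came first and *Gja5* last.

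The summed level of the 8 connexins per kilobase was 325.4 ± 58.4 in WT and 301.0 ± 20.7 in *Opa1*+/- mice (SD, n = 4). *Gjb2* and *Gjb6* together took 92.6 ± 1.39% of it in WT and 92.5 ± 0.983% in *Opa1*+/- mice, and 90.1 ± 1.83% and 90.1 ± 1.12% by longest transcript. This joint share differed between genotypes by less than the spread between mice.

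**Figure D1:**
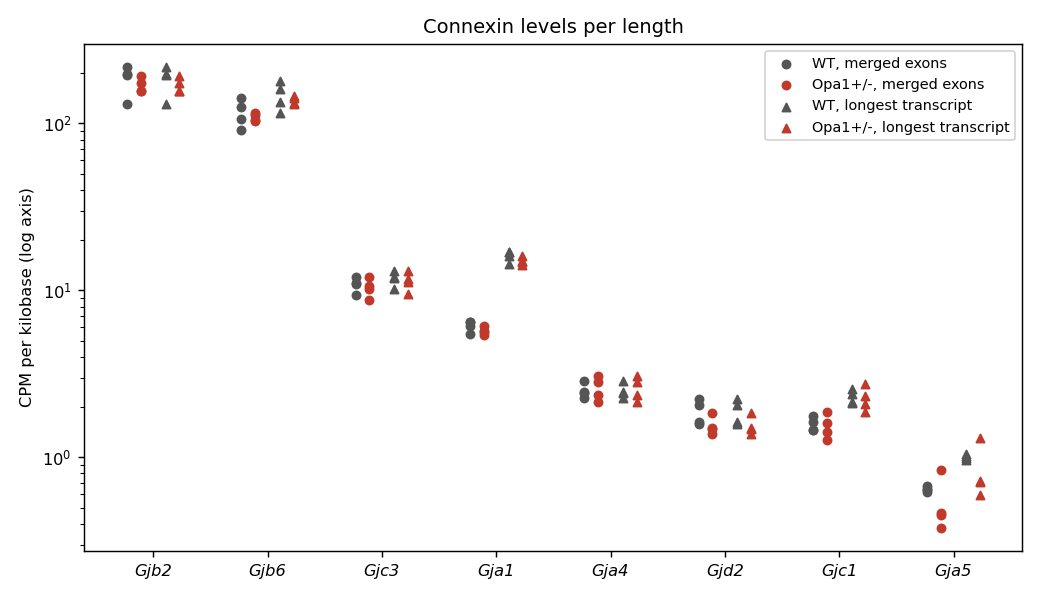
Level of each connexin in each mouse as CPM per kilobase on a log axis, with grey symbols for WT and red for *Opa1*+/- mice, circles for merged exon length and triangles for the longest transcript. *Gjb2* and *Gjb6* lie apart from the other 6 genes by either length, while *Gja1* and *Gjc3* exchange places.

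The second question was whether the mutation changed these levels. Among all 19366 genes, 0.0258% passed an adjusted p under 0.05 and 6.72% an unadjusted p under 0.05 by edgeR's quasi-likelihood test. Of the 8 connexins, 0 passed either, and DESeq2 also called 0 of 8 at an adjusted p under 0.05 (0.119% of all genes) or an unadjusted p under 0.05 (5.61%). The groups overlapped for each of the 8, whereas 4.31% of all genes had groups that did not overlap. The log2 fold change was below 0 for 7 of the 8 connexins and had a median of −0.10, beside 49.9% of all genes below 0 and a median of 0.0004 over all genes tested. The median was −0.043 without WT mouse 6 and −0.029 without *Opa1*+/- mice A and B, with 5 of 8 below 0 in each case. By edgeR, the adjusted p of the 8 lay between 0.772 and 0.978.

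**Figure D2:**
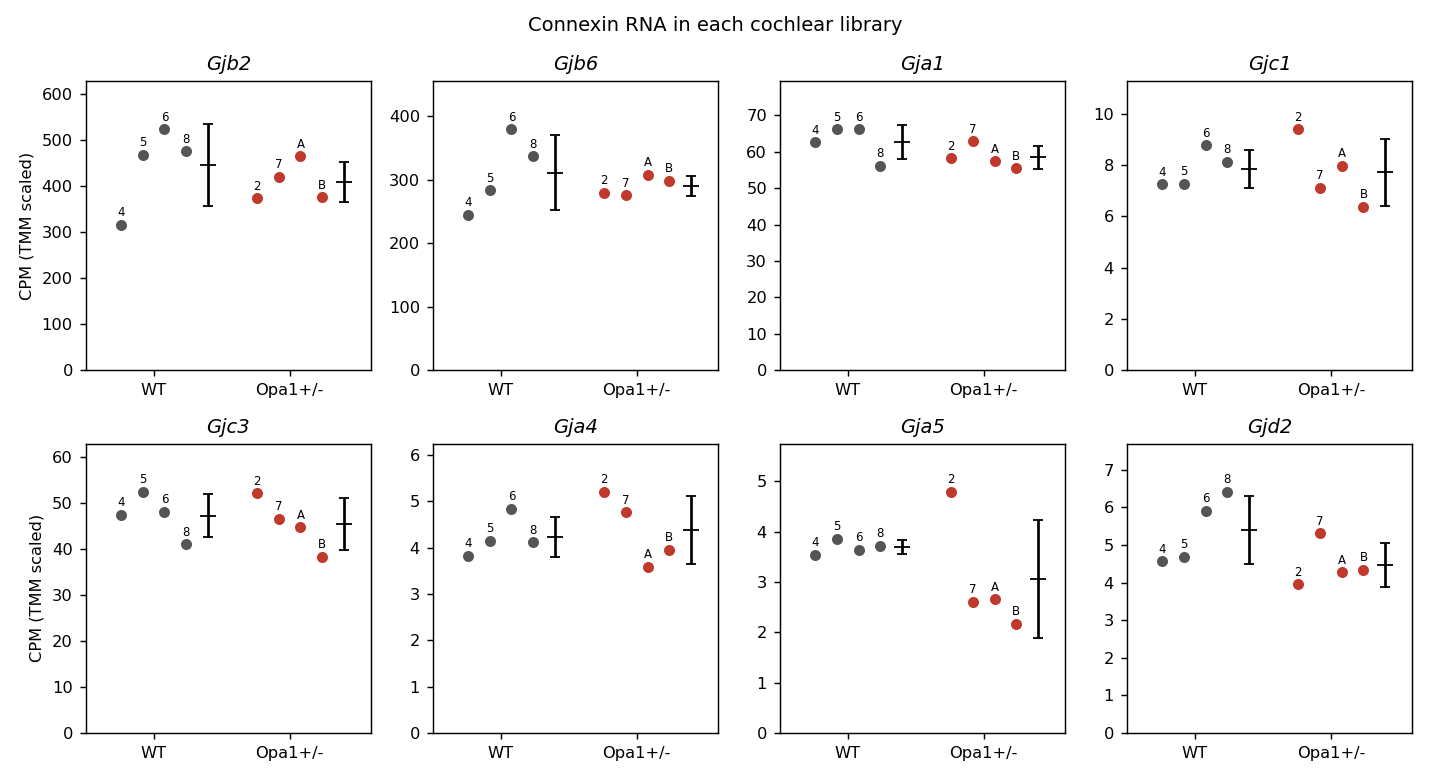
CPM of the 8 connexins in each mouse (points, numbered by animal), with the mean and SD of each group of 4 beside them and each axis starting at 0. WT mouse 4 is lowest for *Gjb2* and *Gjb6*, *Opa1*+/- mouse 2 is highest for *Gja5*, and the genotypes overlap in all 8 panels.

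*Gjb2* was measured at 316, 468, 524 and 476 CPM in WT mice 4, 5, 6 and 8, and at 374, 421, 465 and 376 CPM in *Opa1*+/- mice 2, 7, A and B. The 4 *Opa1*+/- mice lay inside the WT range, which was set by the low WT mouse 4 and the high WT mouse 6. The mean was 446 ± 90.0 CPM in WT against 409 ± 43.4 CPM in *Opa1*+/- mice (SD, n = 4), a log2 fold change of −0.13 (SE 0.146, adjusted p = 0.890 by edgeR). Its 95% interval ran from −0.45 to 0.20, which is 0.730-fold to 1.15-fold. Leaving out WT mouse 4 gave −0.26 with an unadjusted p of 0.0223 and an adjusted p of 0.424 by edgeR, and leaving out WT mouse 6 gave −0.039. In WT mouse 4 the summed CPM of supporting cell markers was 364, beside 455 to 584 in the other 7 mice, and that of neutrophil markers was 1304. WT mouse 6 was the highest of the 8 mice for markers of fibrocytes (4200.3 CPM), stria vascularis (649.7 CPM), hair cells (302 CPM) and skeletal muscle (1334 CPM). The part of these differences in the *Gjb2* value was not tested.

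*Gjb6* was measured at 245, 284, 379.6 and 337 CPM in WT mice 4, 5, 6 and 8, and at 279.6, 276, 308 and 299 CPM in *Opa1*+/- mice 2, 7, A and B. Again the WT mice spanned the *Opa1*+/- mice on both sides, with mouse 4 lowest and mouse 6 highest. The means were 311 ± 59.3 and 290.5 ± 15.3 CPM (SD, n = 4), with a log2 fold change of −0.10 (SE 0.124, adjusted p = 0.901 by edgeR) and a 95% interval of 0.769-fold to 1.13-fold. The sign turned to 0.0098 without WT mouse 6, and the value was −0.20 (adjusted p = 0.537 by edgeR) without WT mouse 4. Between the mice of 1 genotype the coefficient of variation averaged 14.4% for *Gjb6* and 16.5% for *Gjb2*, where counting error alone would give 1.36% and 1.14%.

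The genes around this pair were read in the same fit. Within 200 kb of *Gjb2* or *Gjb6*, *Zmym2*, a zinc finger protein gene, stood at 92.0 ± 4.57 CPM in WT against 83.8 ± 2.47 CPM in *Opa1*+/- mice (SD, n = 4; log2 fold change −0.13, unadjusted p = 0.0403, adjusted p = 0.728 by edgeR). Every *Opa1*+/- mouse was below every WT mouse for *Zmym2*, as for 4.31% of all genes in either direction, with an exact permutation p of 0.0286, the smallest that 4 against 4 mice allow. *Cryl1*, which encodes lambda-crystallin, stood at 13.9 ± 0.755 and 13.6 ± 0.937 CPM (SD, n = 4; adjusted p = 0.946 by edgeR). *Gja3*, the lens connexin Cx46 beside *Gjb2*, had 1 to 5 counts per mouse and was under the filter.

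*Gja1* encodes Cx43, the main connexin of astrocytes, bone and many connective tissues. It lies at chr10:56377330-56402513 on the plus strand. Its level was 62.6, 66.2, 66.1 and 56.2 CPM in WT mice 4, 5, 6 and 8, and 58.2, 62.9, 57.4 and 55.5 CPM in *Opa1*+/- mice 2, 7, A and B. WT mouse 8 lay among the *Opa1*+/- mice, and the other 3 WT mice lay in the upper part of the range. With means of 62.8 ± 4.70 and 58.5 ± 3.11 CPM (SD, n = 4) the log2 fold change was −0.10 (SE 0.0689, adjusted p = 0.794 by edgeR). This gave the narrowest interval of the 8 genes, 0.837-fold to 1.04-fold. Leaving out WT mouse 8 gave −0.16 with an unadjusted p of 0.0434 and an adjusted p of 0.998 by edgeR. Summed bone markers stood at 2853 ± 287 CPM in WT against 2640 ± 341 CPM in *Opa1*+/- mice (exact permutation p = 0.457, two-sided), and their part in the *Gja1* value was not tested.

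*Gjc3* encodes Cx29, a connexin of myelinating Schwann cells and oligodendrocytes, and lies at chr5:137953461-137963098 on the minus strand. Its values were 47.4, 52.3, 48.0 and 41.0 CPM in WT mice 4, 5, 6 and 8, and 52.1, 46.6, 44.6 and 38.3 CPM in *Opa1*+/- mice 2, 7, A and B. Each genotype held values near both ends of the range. The means of 47.2 ± 4.66 and 45.4 ± 5.69 CPM (SD, n = 4) gave a log2 fold change of −0.056 (SE 0.102, adjusted p = 0.935 by edgeR) and an interval of 0.821-fold to 1.13-fold. Markers of Schwann cells lay on the other side of 0: 10 of 10 had a positive log2 fold change, beside 50.1% of all genes, with a median of 0.20. Of these 10, 1 was higher at an unadjusted p under 0.05, beside 3.51% of all genes, and 0 at an adjusted one by edgeR. Their sum was 4111 ± 610 CPM in WT against 4704 ± 622 CPM in *Opa1*+/- mice (SD, n = 4; exact permutation p = 0.257, two-sided). That of oligodendrocyte markers was 207 ± 57.4 and 237 ± 56.3 CPM (exact permutation p = 0.486). *Gjb1* (Cx32), another connexin of Schwann cells and oligodendrocytes, is described with the rest of the family.

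The vascular connexins were low. *Gja4* encodes Cx37 and *Gja5* encodes Cx40, both known from arterial endothelium, and *Gjc1* encodes Cx45, known from smooth muscle, pericytes and developing heart. They lie at chr4:127311421-127314039 on the minus strand, chr3:96904693-97077416 on the plus strand and chr11:102799579-102819700 on the minus strand. *Gja5* shares exon bases with *Gpr89* on the opposite strand, and since the use of strand in counting is not given in the sources used here, its counts are uncertain.

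*Gja5* was at 3.54, 3.86, 3.64 and 3.72 CPM in WT mice 4, 5, 6 and 8, and at 4.79, 2.61, 2.66 and 2.17 CPM in *Opa1*+/- mice 2, 7, A and B. In total 3 *Opa1*+/- mice were below every WT mouse and mouse 2 was above every WT mouse. The 4 WT mice spread by a coefficient of variation of 3.63% and the *Opa1*+/- mice by 38.5%, the widest among the 8 genes, where counting error alone would give 12.8%. The means of 3.69 ± 0.134 and 3.06 ± 1.18 CPM (SD, n = 4) differed by a log2 fold change of −0.27 (SE 0.235, adjusted p = 0.843 by edgeR), with an interval of 0.575-fold to 1.19-fold. With 1 mouse left out the value lay between −0.57, without *Opa1*+/- mouse 2 (unadjusted p = 0.00593, adjusted p = 0.827 by edgeR), and −0.15, without *Opa1*+/- mouse B. Leaving out mice A and B together gave −0.0047. Summed mural cell markers were also highest in *Opa1*+/- mouse 2 (1552 CPM) and lowest in mouse B (596 CPM), with 745 to 1255 CPM in the WT mice. Among the mural markers, *Acta2* was at 521 and 138 CPM and *Myh11* at 424 and 80.5 CPM in mice 2 and B. *Rgs5* (164 and 166 CPM) and *Kcnj8* (5.20 and 5.36 CPM) were not higher in mouse 2, unlike the rest of that list. Markers of arterial endothelium lay between 91.4 and 108 CPM in all 8 mice. Those of endothelium in general were highest of the 8 mice in *Opa1*+/- mouse 2 (425 CPM) and lowest of the *Opa1*+/- mice in mouse B (361 CPM), and 10 of 10 had a positive log2 fold change, beside 50.1% of all genes, with a median of 0.088. The part of the mural and endothelial cells in the spread of *Gja5* was not tested.

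*Gja4* was at 3.82, 4.15, 4.84 and 4.11 CPM in WT mice 4, 5, 6 and 8, and at 5.20, 4.76, 3.59 and 3.96 CPM in *Opa1*+/- mice 2, 7, A and B. It was the only one of the 8 with a positive log2 fold change, 0.052 (SE 0.156, adjusted p = 0.960 by edgeR), with means of 4.23 ± 0.431 and 4.38 ± 0.737 CPM (SD, n = 4), and the sign turned to −0.037 without *Opa1*+/- mouse 2. Its 58 to 95 counts per mouse gave an interval of 0.814-fold to 1.32-fold, and counting error alone would give a coefficient of variation of 11.4%, near the 14.0% seen between mice.

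*Gjc1* was at 7.25, 7.28, 8.78 and 8.13 CPM in WT mice 4, 5, 6 and 8, and at 9.40, 7.12, 7.98 and 6.38 CPM in *Opa1*+/- mice 2, 7, A and B. Here too mouse 2 was the highest and mouse B the lowest of the 8 mice. The log2 fold change was −0.025 (SE 0.138, adjusted p = 0.978 by edgeR; 7.86 ± 0.739 and 7.72 ± 1.30 CPM, SD, n = 4) with an interval of 0.793-fold to 1.22-fold, and its sign turned under several alternatives. The ratio of *Gja5* to *Gja4* counts was 0.878 ± 0.0841 in WT and 0.689 ± 0.179 in *Opa1*+/- mice (SD, n = 4), given as a description.

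*Gjd2* encodes Cx36, the connexin of electrical synapses between neurons, and lies at chr2:114009601-114013619 on the minus strand, sharing exon bases with *A530058N18Rik* on the opposite strand, so that its counts are uncertain in the same way. Its RNA amounted to 4.57, 4.69, 5.91 and 6.41 CPM in WT mice 4, 5, 6 and 8, and to 3.96, 5.31, 4.27 and 4.34 CPM in *Opa1*+/- mice 2, 7, A and B. Again 3 *Opa1*+/- mice were below every WT mouse, and mouse 7 lay between the WT mice. The means of 5.40 ± 0.912 and 4.47 ± 0.585 CPM (SD, n = 4) gave a log2 fold change of −0.27 (SE 0.160, adjusted p = 0.772 by edgeR), with an interval of 0.647-fold to 1.06-fold from 67 to 131 counts per mouse. With 1 mouse left out the log2 fold change of *Gjd2* lay between −0.36, without *Opa1*+/- mouse 7, and −0.18, without WT mouse 8. Summed markers of spiral ganglion neurons were 6605 ± 480 and 6466 ± 440 CPM (SD, n = 4; exact permutation p = 0.686, two-sided).

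**Figure D3:**
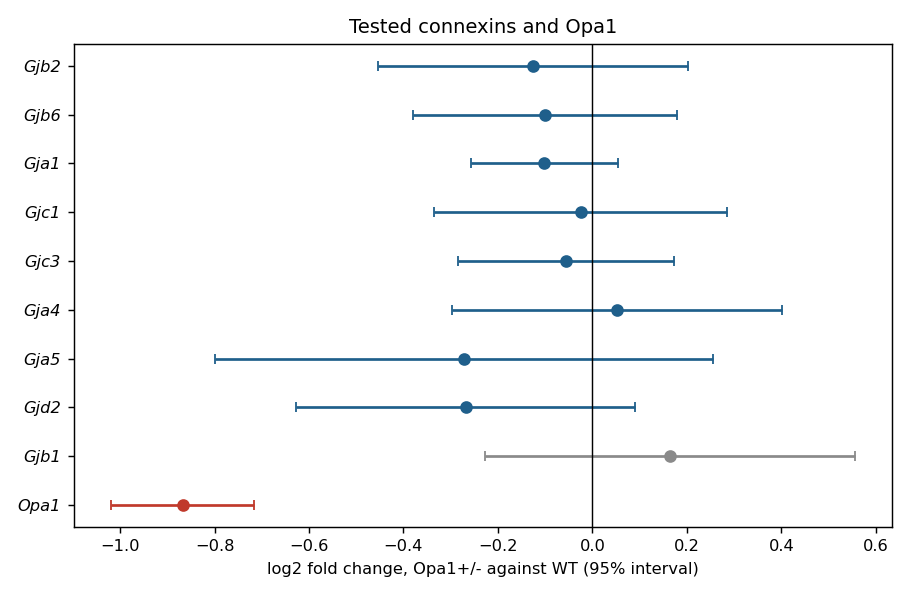
Log2 fold change of *Opa1*+/- against WT mice with its 95% interval from edgeR, for the 8 connexins (blue), *Gjb1* (grey) and *Opa1* (red). All 9 connexin intervals cross 0, and that of *Opa1* does not.

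Outside the 8 genes, *Gjb1* also passed the filter. It stood at 10.7 ± 3.05 CPM in WT against 12.0 ± 1.0 CPM in *Opa1*+/- mice (SD, n = 4; log2 fold change 0.16, SE 0.175, adjusted p = 0.878 by edgeR). Per kilobase of merged exons, *Gjb1* lay between *Gjc3* and *Gja1* at 6.67 ± 1.29 CPM, and its range overlapped both. Per kilobase of longest transcript, *Gjb1* lay below both at 7.18 ± 1.39 CPM, and its range overlapped that of *Gjc3* but not that of *Gja1*. Over all 8 mice together, *Gjb5* had 32 counts, *Gja3* 16, *Gja6* and *Gja10* 8 each, *Gjd4* 3, and *Gjd3* and *Gje1* 0, all under the filter. At this depth, 0 counts over the 8 libraries allow up to 3 counts, or 0.0209 CPM, counting error only.

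The pannexins form membrane channels of a similar fold that do not build gap junctions. Of 3 tested, 0 passed an unadjusted p under 0.05, beside 6.72% of all genes. Without WT mouse 6, 1 did, and the share of all genes in that fit is not given here. *Panx3*, known from bone and cartilage, stood at 1.22 ± 0.471 CPM in WT against 0.853 ± 0.0781 CPM in *Opa1*+/- mice (SD, n = 4; log2 fold change −0.50, SE 0.284, adjusted p = 0.766 by edgeR). *Panx2* stood at 56.5 and 58.7 CPM, with a log2 fold change of 0.057.

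Proteins that bind connexins or govern their turnover were tested as a list of 12, of which 8 had a log2 fold change below 0, with a median of −0.051 (−0.011 without WT mouse 8 and 0.0054 without *Opa1*+/- mice A and B). At an unadjusted p under 0.05, 1 was lower and 0 were higher, beside 3.22% lower and 3.51% higher among all genes, and 0 of 12 passed the adjusted threshold. This count of 1 became 0 without WT mouse 6 or without *Opa1*+/- mouse 2, A or B. It was 2 without WT mouse 4, where 10.4% of all genes were called in either direction. Scaling by total counts alone and voom also gave 2. The shares of all genes in these other fits are not given here. *Tjp1*, which encodes the scaffold ZO-1 at the edge of gap junction plaques, stood at 203 ± 16.0 CPM in WT against 178 ± 14.5 CPM in *Opa1*+/- mice (SD, n = 4; log2 fold change −0.19, SE 0.0819, adjusted p = 0.732 by edgeR). *Wwp1*, a ubiquitin ligase that acts on Cx43, stood at 72.6 ± 2.91 and 66.9 ± 3.42 CPM (log2 fold change −0.12, adjusted p = 0.758 by edgeR).

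Genes of the cochlear potassium circulation, the channels, pumps and cotransporters whose ions the gap junction networks are known to carry, were tested as a list of 17, of which 16 passed the filter. At an unadjusted p under 0.05, 0 of 16 were called, beside 6.72% of all genes. The log2 fold change was below 0 for 15 of 16, beside 49.9% of all genes, with a median of −0.12 and a range from −0.24 to 0.070. *Atp1b1*, a subunit of the sodium pump, stood at 1001 ± 114 CPM in WT against 919.7 ± 26.2 CPM in *Opa1*+/- mice (SD, n = 4; log2 fold change −0.12, adjusted p = 0.796 by edgeR). Without WT mouse 4, 5 of the 16 passed an unadjusted p under 0.05, beside 10.4% of all genes in the same fit, and without WT mouse 6 the median was −0.038 and 0 passed. Summed markers of fibrocytes were 3724 ± 561 and 3378 ± 419.9 CPM (exact permutation p = 0.4), those of supporting cells 493 ± 93.0 and 513 ± 46.9 CPM (p = 0.743), and those of the stria vascularis, which share *Kcnq1*, *Kcne1* and *Bsnd* with the list, 482 ± 138 and 483 ± 70.6 CPM (p = 1). By log2 fold change, 1 of 9 strial, 2 of 6 fibrocyte and 3 of 11 supporting cell markers were positive, with medians of −0.15, −0.14 and −0.043, and *Dct*, the most abundant strial marker, was at 197 CPM in WT and 222 CPM in the *Opa1*+/- mice. At an unadjusted p under 0.05 by edgeR, 1 of 6 fibrocyte markers was called, the lower *Otor*, beside 6.72% of all genes. For strial and for supporting cell markers this count was 0. *Coch* alone made up 3135 and 2729 CPM of the fibrocyte sums. The part of these cell types in the potassium list's values was not tested.

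The third question was whether the connexins vary together between mice. Pearson's r of log2 CPM over all 8 mice was computed for the 28 pairs, and 0 pairs passed after adjustment over the 28. *Gjb2* and *Gjb6* had the highest r, 0.833 (exact permutation p = 0.00950, adjusted p = 0.266), with Spearman's rho 0.833 (exact permutation p = 0.0154). After leaving out WT mice 4 and 6, the farthest from the median of *Gjb2*, r was 0.505 over a narrower range of *Gjb2*. *Gjc1* and *Gja5* had r = 0.752 (exact permutation p = 0.0333, adjusted p = 0.419) and rho = 0.786 (exact permutation p = 0.0279), and r was 0.236 without *Opa1*+/- mice 2 and B. *Gjb6* and *Gja1* had r = −0.016. Since each mouse is a mixture of cells, r over mice also carries the share of each cell type in the library.

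**Figure D4:**
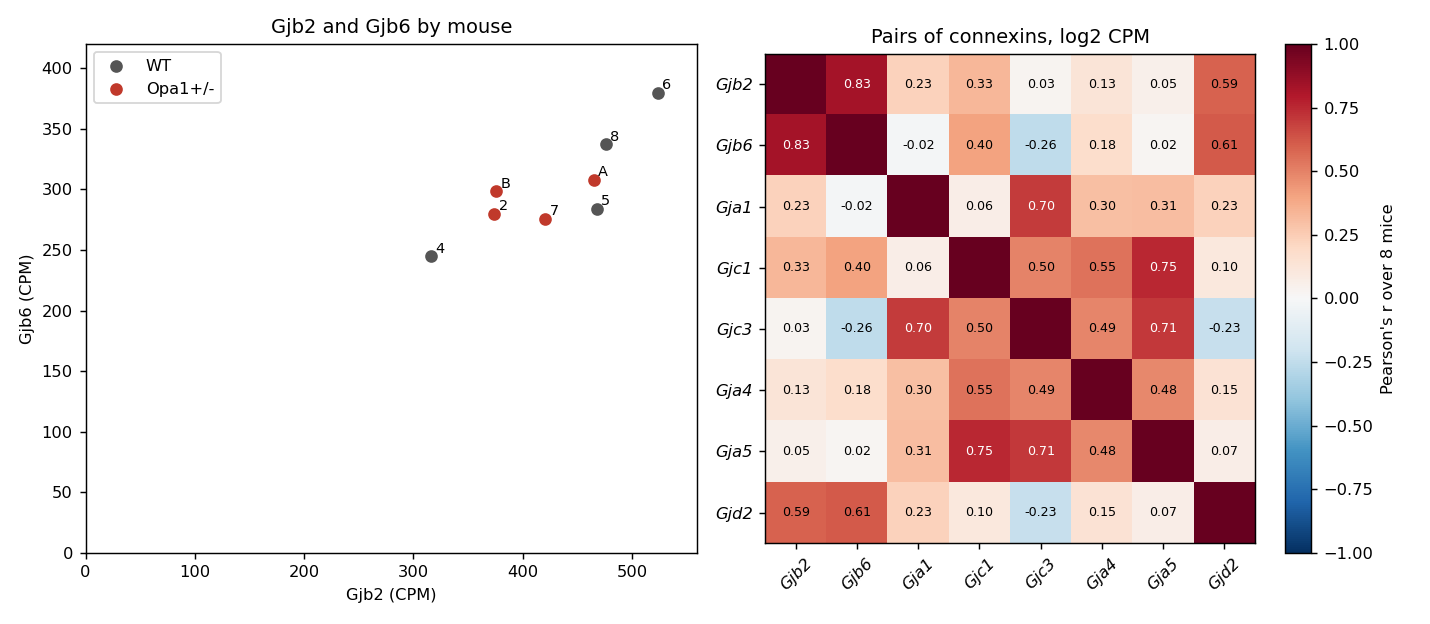
Left, CPM of *Gjb6* against *Gjb2* with 1 point per mouse, numbered by animal, and both axes starting at 0. Right, Pearson's r of log2 CPM over 8 mice for each pair of connexins, where *Gjb2* with *Gjb6* has the highest value, 0.83, and r runs down to −0.26.

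For the 4 most abundant of the 8 connexins, the genes whose log2 CPM followed each most closely over mice were listed from 13569 genes. This is a description, since the highest of so many r values over 8 mice are high in any case. For *Gjb2* they were *Pou3f3*, a POU-domain transcription factor (r = 0.992), *Lmtk2*, a kinase (0.989), and *Slc8a3*, a sodium-calcium exchanger (0.982). For *Gjb6* they were *Cds1*, an enzyme of phospholipid synthesis (0.991), *Usp10*, a deubiquitinase (0.984), and *Asb8* (0.976). *Gja1* was closest to *Tet2*, a methylcytosine dioxygenase (0.934), *Igsf10* (0.925) and *Tbx3*, a T-box transcription factor (0.918), and *Gjc3* to *Ric8b* (0.949), *Pcsk6*, a proprotein convertase (0.942), and *Tmem80* (0.926). *Gjb6* took place 316 in the order for *Gjb2*, and *Gjc3* took place 303 in the order for *Gja1*.

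**Figure D5:**
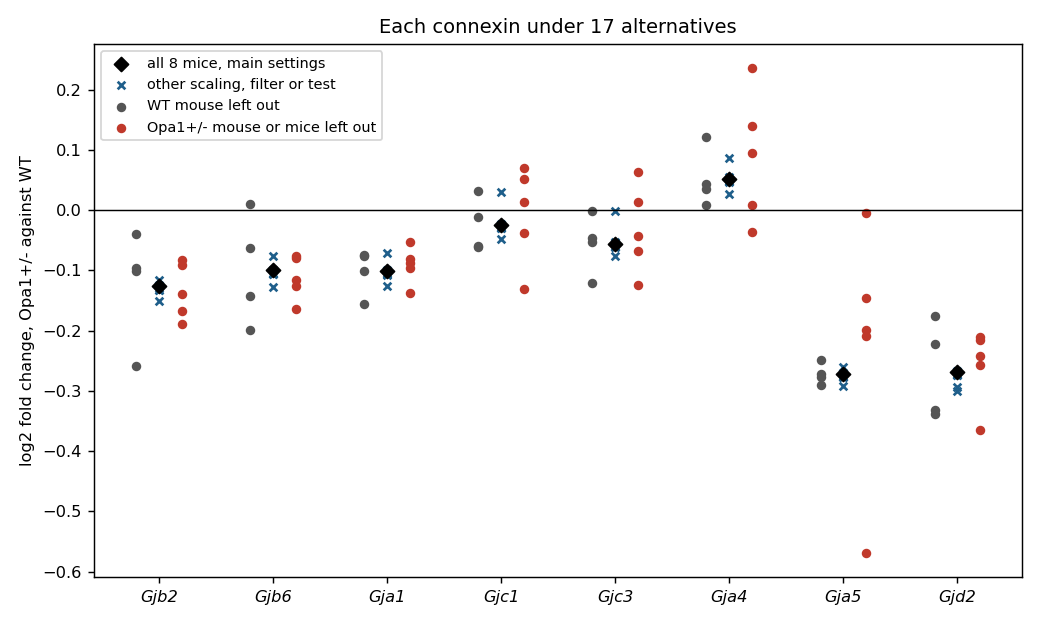
Log2 fold change of each connexin with all 8 mice (black diamond), under another scaling, filter or test (blue crosses), and with WT (grey) or *Opa1*+/- mice (red) left out. *Gjb2*, *Gja1*, *Gja5* and *Gjd2* stayed below 0 under all 17 alternatives, and *Gja5* moved between −0.57 and −0.0047.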

How the data were processed

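RNA seq of whole cochleae from 4 WT and 4 *Opa1*+/- mice was analysed, with genotypes from the sample titles. The authors prepared CORALL libraries with molecular identifiers, sequenced paired reads and, per the submitters' processing notes, used FastQC and STAR with GRCm38/mm10; the counting program and its use of strand are not given in the sources used here. The authors deposited raw counts per gene symbol for each mouse, without normalization. Left out were 15 entries with a number in place of a symbol, which held between 0.112% and 0.124% of the counts. Depth was 15978051 to 20828030 counts on named genes per mouse.

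Counts were scaled by TMM and fitted with edgeR 4.0.16 in R 4.3.3 (quasi-likelihood test, no robust estimation) on the 19366 genes with a mean count over 10 after DESeq2 size factors, with Benjamini-Hochberg adjustment over all of them and an adjusted p under 0.05. DESeq2 1.42.0 and voom from limma 3.58.1 were alternatives, with other scalings and filters and each mouse left out in turn. Intervals are 95% intervals from the same fit, and p-values cover the spread between mice. The script was tested on simulated data. Sums and levels per mouse were compared by exact two-sided permutation over the 70 arrangements of 4 against 4 mice, whose smallest p is 0.0286. Correlations were tested over all 40320 pairings.

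The connexins and all lists (other connexins, pannexins, connexin partners, potassium circulation and 17 cell type marker lists) were chosen with earlier results of these data known. Named in the text are the 8 connexins, other connexins passing the filter, the 2 genes of lowest p in each further list, tested genes within 200 kb of *Gjb2* or *Gjb6*, and the 3 genes closest to each of 4 connexins by Pearson's r among genes with a mean count over 100. Marker genes are named only as checks. Some genes that this rule names are not reported here. Protein sequences were not used here.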

Additional observations from a re-analysis of the deposited data

Results flagged for a closer look

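The summed CPM of 7 neutrophil markers in WT mice had 1 value far from the rest: WT mouse 4 stood at 1304, and the other 3 WT mice lay between 398 and 486. Chance flags about 1 in 20 groups, and 52 groups of 4 mice were examined, connexins and marker lists together. No connexin was among the flagged values. WT mouse 4 was also the lowest of the 8 mice for *Gjb2* and *Gjb6*, and the values without it stand beside those genes.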

How the results depend on the processing

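Of 136 connexin values under 17 alternatives, 127 kept their direction and side of the threshold, and 0 of 8 connexins were called under any alternative. The other 9 changed sign. *Gjc1* was 0.031 with voom and 0.070 without *Opa1*+/- mice A and B, and *Gjc3* was 0.064 without these 2 mice. With 1 mouse left out, the log2 fold change ranged from −0.20 to 0.0098 for *Gjb6*, −0.13 to 0.052 for *Gjc1*, −0.12 to 0.014 for *Gjc3*, −0.037 to 0.14 for *Gja4* and −0.26 to −0.039 for *Gjb2*. *Opa1* ranged from −0.90 to −0.83, with an adjusted p of 0.0704 by edgeR without *Opa1*+/- mouse 2, and was −0.86 with an adjusted p of 0.260 by edgeR without mice A and B. The count of all genes called, 5, became 12 with no filter, 23 by DESeq2, 10 by voom, 10 with robust estimation, 0 without mice A and B, and 0 to 9 with 1 mouse left out, the lowest without *Opa1*+/- mouse 2 and the highest without WT mouse 4. The cause was not tested. No paired analysis was possible because the 2 groups share 0 animal numbers. Counts were lowest for *Gja5*, at 34 to 81 per mouse. Counting error alone would give it a coefficient of variation of 12.8%, against 24.8% between mice. For *Gja4* and *Gjd2*, with 58 to 131 counts per mouse, counting error alone would give 11.4% and 10.6% against 14.0% and 15.5%.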

Other observations

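The remaining marker lists describe the other cells in the libraries. Each is given as summed CPM in WT and *Opa1*+/- mice (SD, n = 4 each) with an exact two-sided permutation p, and at an unadjusted p under 0.05 by edgeR 1 of 10 endothelial, 1 of 10 mural and 1 of 4 tested keratinocyte markers was called and 0 of each other list given here, beside 6.72% of all genes. Hair cell markers stood at 262 ± 40.2 and 249.6 ± 8.08 CPM (exact p = 0.571), endothelial markers at 372 ± 18.2 and 397 ± 29.4 CPM (exact p = 0.2), and arterial markers at 100.4 ± 6.96 and 98.2 ± 4.16 CPM (exact p = 0.657). Mural cell markers stood at 934 ± 221 and 988 ± 413 CPM (exact p = 0.83), astrocyte markers at 307 ± 103 and 310.5 ± 53.7 CPM (exact p = 0.914), and meningeal markers at 242 ± 53.9 and 225 ± 26.5 CPM (exact p = 0.686). Keratinocyte markers were low at 16.3 ± 7.30 and 9.39 ± 1.47 CPM (exact p = 0.143), with WT mouse 4 the lowest of the 8 mice at 6.05 CPM. Skeletal muscle markers varied from 11.8 to 1334 CPM between mice (exact p = 0.657). Neutrophil markers stood at 652 ± 437 and 688 ± 301 CPM (exact p = 0.857). Erythroid markers stood at 12547 ± 6235 and 18481 ± 4623 CPM (exact p = 0.171), and WT mouse 4, at 21425 CPM, lay among the *Opa1*+/- mice, while the other 3 WT mice lay between 7739 and 12300.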
